A study of Caenorhabditis elegans with 2 samples.

Results

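The regions described here are the ELT-3 ChIP-seq peaks that lay between genes and close to a gene start on the autosomes of the nematode Caenorhabditis elegans. A peak was included when its summit, the base of highest enrichment, was on chromosomes I to V, lay outside the span of every protein-coding gene, and was at most 1000 bp from the nearest annotated 5′ end of a protein-coding gene. This selected 256 of the 1014 peaks in the authors' IDR set (irreproducible discovery rate, a procedure that keeps peaks ranked alike in replicates), or 25.2% (95% Wilson interval 22.7 to 28). Neither signal nor sequence entered the selection from that set, which was itself made by peak rank.

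All material came from 1 group, whole first-stage (L1) larvae of strain OP75, which is unc-119(ed3) and carries the transgene wgIs75, which makes an ELT-3 protein fused at its C terminus to GFP and FLAG. The group had 2 biological replicates of mixed sex, and the comparisons are therefore between kinds of peak and not between conditions. The transgene adds tagged copies to those of the animal itself, and chromatin from every cell type of the larva was combined, so binding in more cells and stronger binding per cell cannot be told apart. The control that entered peak calling was not used here. The depth of sequencing is unknown, since peak lists hold no read counts, and the intervals below cover counting error over peaks or gaps only.

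ELT-3 is a zinc finger transcription factor of the GATA family that is expressed in the epidermis, the cell layer that secretes the cuticle. GATA factors bind DNA sites of the form WGATAR, where W is A or T and R is A or G, so that TGATAA is one of the forms it can take, and so is AGATAG. When neighbouring genes are transcribed away from each other, the sequence between them holds a promoter for each and is called divergent. When they run in the same direction, the gap holds 1 promoter and the 3′ end of the other gene. In C. elegans many transcripts lose their first bases to trans-splicing and many genes lie in operons, so an annotated 5′ end is often not the site where transcription begins.

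Of the 256 peaks, 145 lay in divergent gaps and 107 in gaps with a single gene start, called divergent and single peaks below. The other 4 lay in gaps bounded by no 5′ end, downstream of the gene whose start was nearest. Summits were upstream of the nearest 5′ end in 251 of 256 cases. The peaks occupied 251 gaps, and 5 gaps held 2 peaks each.

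The sequences below show the 101 bases centred on the summit, on the forward strand of the ce11 build (WBcel235, from RefSeq), with each WGATAR match on either strand in capitals. The first 5 are the strongest divergent peaks and the next 5 the strongest single peaks on chromosomes II to V, taken by signal and not by sequence. The sites are in the order given, named by the gene with the nearest start, at chrII:8561392-8561492, chrIV:654891-654991, chrIII:15390-15490, chrIV:4750030-4750130 and chrIII:6396635-6396735 for the divergent peaks, and at chrII:10563521-10563621, chrIII:3867526-3867626, chrV:11980022-11980122, chrV:9546953-9547053 and chrIV:6323817-6323917 for the single peaks. Capitals appear in 2 of the 10, those of H10E21.1 and oatr-1.
iff-2: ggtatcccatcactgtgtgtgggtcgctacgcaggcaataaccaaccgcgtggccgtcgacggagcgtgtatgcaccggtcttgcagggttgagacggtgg
rpl-15: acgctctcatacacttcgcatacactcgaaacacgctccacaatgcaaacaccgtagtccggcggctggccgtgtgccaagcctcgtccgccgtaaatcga
H10E21.1: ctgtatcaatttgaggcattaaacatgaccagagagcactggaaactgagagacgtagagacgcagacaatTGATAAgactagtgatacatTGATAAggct
Y17G9B.5: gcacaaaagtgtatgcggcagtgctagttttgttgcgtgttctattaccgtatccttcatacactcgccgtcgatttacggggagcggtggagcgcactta
oatr-1: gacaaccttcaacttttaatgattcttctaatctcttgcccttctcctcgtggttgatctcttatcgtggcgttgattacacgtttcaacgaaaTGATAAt
cdc-48.1: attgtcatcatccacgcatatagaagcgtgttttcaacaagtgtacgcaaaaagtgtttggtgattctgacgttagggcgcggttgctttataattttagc
rpl-3: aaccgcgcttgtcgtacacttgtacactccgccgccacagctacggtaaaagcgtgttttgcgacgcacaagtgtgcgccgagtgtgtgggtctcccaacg
snr-4: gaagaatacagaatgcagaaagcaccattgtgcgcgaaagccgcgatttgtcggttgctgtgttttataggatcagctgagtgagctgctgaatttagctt
his-37: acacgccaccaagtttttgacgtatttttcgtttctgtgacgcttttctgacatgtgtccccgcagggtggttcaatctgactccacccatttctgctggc
sqd-1: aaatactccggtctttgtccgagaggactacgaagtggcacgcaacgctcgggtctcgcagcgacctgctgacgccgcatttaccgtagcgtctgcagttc

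For contrast, 4 strong summits that do hold WGATAR, chosen after the sequences were seen, are shown in the same way. They lie at chrV:3979992-3980092 next to nlp-31, chrIII:11727170-11727270 next to Y41C4A.12, chrIV:15930014-15930114 next to Y105C5B.9 and chrV:6246513-6246613 next to dmd-7, and the first 3 are divergent. The nlp-31 and Y105C5B.9 sequences hold overlapping sites, so the capitals run together. In the dmd-7 sequence the site is on the reverse strand.
nlp-31: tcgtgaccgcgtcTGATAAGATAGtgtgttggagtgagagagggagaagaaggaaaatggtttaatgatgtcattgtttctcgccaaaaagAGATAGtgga
Y41C4A.12: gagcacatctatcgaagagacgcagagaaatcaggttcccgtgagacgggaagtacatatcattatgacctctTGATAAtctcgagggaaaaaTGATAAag
Y105C5B.9: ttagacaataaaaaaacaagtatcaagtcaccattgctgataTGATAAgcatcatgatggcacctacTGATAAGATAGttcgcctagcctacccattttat
dmd-7: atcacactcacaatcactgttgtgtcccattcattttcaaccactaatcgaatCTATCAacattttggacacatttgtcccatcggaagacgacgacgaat

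The first comparison asked whether ELT-3 peaks near gene starts favoured divergent over single promoters. Divergent gaps held a peak more often: 141 of 3641 divergent gaps (3.87%, 95% Wilson interval 3.29 to 4.55) against 106 of 8720 single gaps (1.22%, 1.01 to 1.47). The background over both kinds was 247 of 12361 gaps, or 2.00%. The odds ratio was 3.27 (Fisher's exact test, two-sided, p = 8.58e-20). With the log2 gap length in a logistic model the odds ratio was 3.01 (95% interval 2.32 to 3.89). A divergent gap has a gene start at each end and thus more sequence close to a start. Per Mb of intergenic sequence within the distance limit there were 32.8 divergent peaks and 18.1 single peaks, a ratio of 1.82. Divergent peaks made up 145 of 252 peaks (57.5%, 51.4 to 63.5) on 42.7% of that sequence (exact binomial test, p = 2.87e-06). Counted by gene start, 144 of 7282 starts at divergent gaps (1.98%, 1.68 to 2.32) and 105 of 8720 starts at single gaps (1.20%, 0.996 to 1.46) were the nearest start to a peak in the gap they bound (Fisher's exact test, p = 8.76e-05), so the contrast was smaller per start than per gap. The tests treat gaps and gene starts as independent and were made on 1 combined peak set. They pool the autosomes, which were not alike: on chromosome II 18 of 49 divergent and single peaks (36.7%, 24.7 to 50.7) were divergent. Both starts of a divergent gap share that gap, and a peak there counts for only 1 of them, which lowers the share per start.

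**Figure D1:**
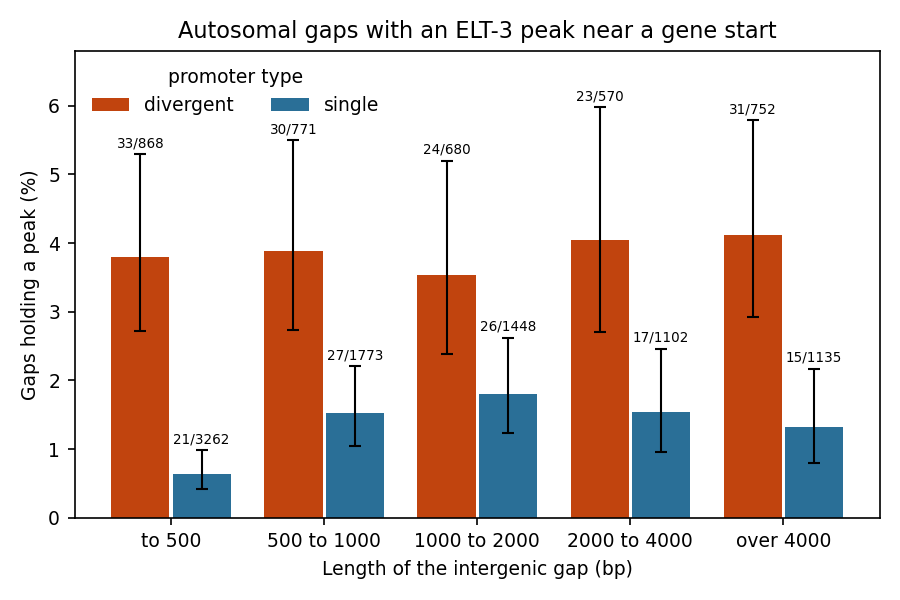
Percentage of autosomal intergenic gaps that held an ELT-3 peak near a gene start, by gap length in bp, for divergent and single promoters. Bars are shares and whiskers are 95% Wilson intervals. Divergent gaps lie between 3.53% and 4.12% in every length class, above the single gaps, which lie between 0.644% and 1.80%.

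The share was higher in divergent gaps in each of the 5 length classes. Among gaps of at most 500 bp, 33 of 868 divergent gaps (3.8%, 2.72 to 5.29) and 21 of 3262 single gaps (0.644%, 0.421 to 0.982) held a peak. Among gaps over 4000 bp, the counts were 31 of 752 divergent gaps (4.12%, 2.92 to 5.79) and 15 of 1135 single gaps (1.32%, 0.803 to 2.17). Short single gaps include those between genes of an operon, and leaving out tandem gaps under 500 bp was one of the alternatives tried. The odds ratio of divergent against single gaps was then 2.55, against 3.27 with all gaps. With gap length in the model it was 2.6, against 3.01. The ratio of peaks per Mb went the other way, to 1.99 from 1.82.

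Summits were close to gene starts in both types. The distance to the nearest 5′ end had a median of 192 bp (quartiles 84 and 442) in divergent peaks and 274 bp (156 and 499.5) in single peaks. It was at most 250 bp in 87 of 145 divergent peaks (60.0%) and in 50 of 107 single peaks (46.7%), a difference of 13.3 percentage points (95% interval 0.839 to 25.2). This did not pass Benjamini-Hochberg adjustment over the 6 tests of divergent against single peaks (Fisher's exact test, p = 0.0412, adjusted p = 0.247). The background differed too: of the intergenic sequence within the distance limit, 37% in divergent gaps and 32.6% in single gaps lay within 250 bp of a start. In 75 of the 145 divergent peaks the start of the facing gene was also within 1000 bp of the summit.

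**Figure D2:**
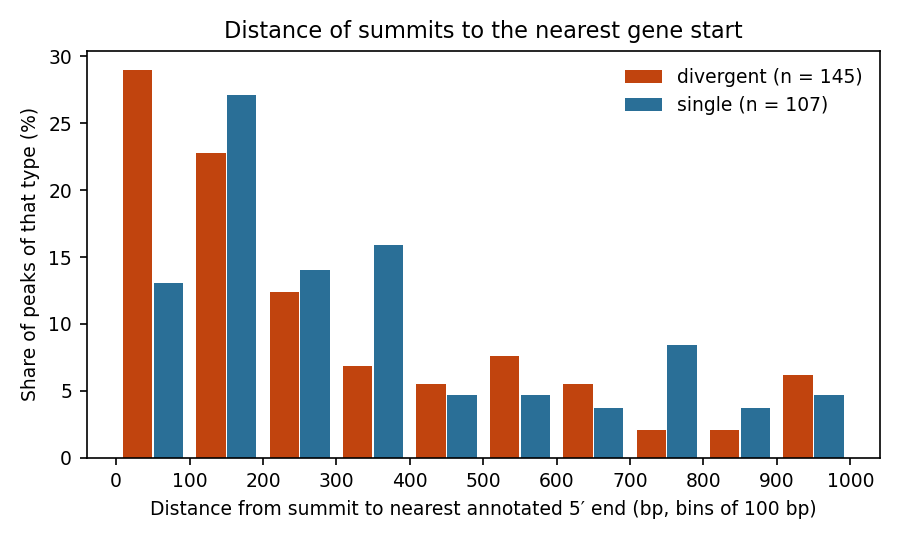
Share of divergent and single peaks, in percent of peaks of that type, by distance from the summit to the nearest annotated 5′ end in bins of 100 bp. Divergent peaks are most frequent in the bin next to the start and single peaks in the bin after it, with medians of 192 bp for divergent and 274 bp for single peaks.

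The limit of 1000 bp cut through a continuous range. Just inside it lay the peaks of F11A5.16 at 983 bp with a signal of 92.3, R10D12.1 at 973 bp with 83.4, and F16G10.14 at 969 bp with 96.1. Just outside it lay those of ttr-41, which encodes a transthyretin-related protein, at 1001 bp with 60.5, C48E7.1 at 1024 bp with 50.8, and mtm-3, a myotubularin phosphatase gene, at 1028 bp with 64.8.

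The peak signal is the authors' value per peak and orders peaks within a list. Its scale differs between the IDR set and the replicate lists. Over the 256 peaks the IDR signal ranged from 46.3 to 242.8 with a median of 63.7, against 61.1 for all 1014 peaks. The median was 65.9 in divergent peaks and 61.9 in single peaks. A signal above the IDR median was found in 87 of 145 divergent peaks (60.0%) and 55 of 107 single peaks (51.4%), a difference of 8.60 points (−3.72 to 20.7) that did not pass the test (Fisher's exact test, adjusted p = 0.598).

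Among the 12 strongest divergent peaks, 6 lay beside a ribosomal protein gene. The peak at chrIV:654813-655068 lay 365 bp upstream of rpl-15, a large-subunit protein gene, and 449 bp from the facing K11H12.8, with a signal of 202.5 in the IDR set, 97.3 in replicate 1 (rank 8) and 162.3 in replicate 2 (rank 7). The peak between Y17G9B.5 and rpl-20, at chrIV:4749952-4750207, had signals of 186.2 in the IDR set, 54.7 in replicate 1 (rank 68) and 144.1 in replicate 2 (rank 12). Upstream of rps-1, a small-subunit gene that faces ifet-1, a regulator of mRNA translation, the values were 157.6, 60.9 (rank 43) and 109.8 (rank 30). All 3 were thus among the strongest peaks of each replicate, and the same was true of those of rpl-35 with 143.9 in the IDR set, rpl-12 with 135.7, which faces the cell cycle regulator lin-54, and ska-3, a spindle and kinetochore gene facing rps-12, with 130.5.

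The other 6 of these divergent peaks lay at genes of varied function. The strongest, at chrII:8561314-8561569, was 75 bp from iff-2, which encodes the translation factor eIF5A, with signals of 213.9 in the IDR set, 119.5 in replicate 1 and 204.6 in replicate 2, at rank 3 in both replicates. The peak between H10E21.1 and nhr-80, a nuclear receptor gene linked to fatty acid desaturation, had signals of 200.1, 72.0 (rank 20) and 118.6 (rank 24). This gap of 902 bp held a second peak 15 bp from the nhr-80 start, with an IDR signal of 91.1, and both summits had a WGATAR and a GAGAGA within 50 bp. The oatr-1 peak, 503 bp from the start of this ornithine aminotransferase gene and 10444 bp from the fibroblast growth factor gene let-756, had signals of 167.7, 59.3 (rank 48) and 102.9 (rank 42). Signals in the IDR set were 165.2 between F26A3.4 and F26A3.5, 155.9 between tasp-1, a taspase homologue, and K01G5.10, and 133.4 between nlp-31 and nlp-34, a pair of antimicrobial peptide genes of the epidermis. Every one of the 12 divergent peaks ranked within the first 89 in replicate 1 and the first 66 in replicate 2.

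The strongest single peak, at chrII:10563443-10563698, lay 164 bp upstream of cdc-48.1, which encodes the p97 ATPase that extracts ubiquitinated proteins, with signals of 242.8 in the IDR set, 118.8 in replicate 1 (rank 4) and 210.0 in replicate 2 (rank 2). The rpl-3 peak, 278 bp upstream of its gene at chrIII:3867448-3867703, had 217.3 in the IDR set and was at rank 1 in both replicates, with 147.5 and 247.3. The next were egg-5, a pseudophosphatase gene of the egg-to-embryo transition, with 134.3, tba-2, an alpha tubulin gene, with 130.0, and snr-4, which encodes a core spliceosomal Sm protein, with 124.0. They were followed by wwp-1, a ubiquitin ligase gene, with 121.9, the histone H4 gene his-37 with 116.4, and sqd-1, an hnRNP gene, with 111.3. The last 4 were dmd-7, a DM-domain gene, with 109.8, the innexin inx-13 with 105.9, the saposin-like spp-31 with 100.8 and the cytochrome P450 cyp-29A4 with 100.3. Only 6 of these 12 were among the 100 strongest peaks of replicate 1, and 6 among those of replicate 2. Histone genes, tubulins and egg-5 have close relatives in the genome, and how reads shared with them were assigned is not given in the sources used here.

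**Figure D3:**
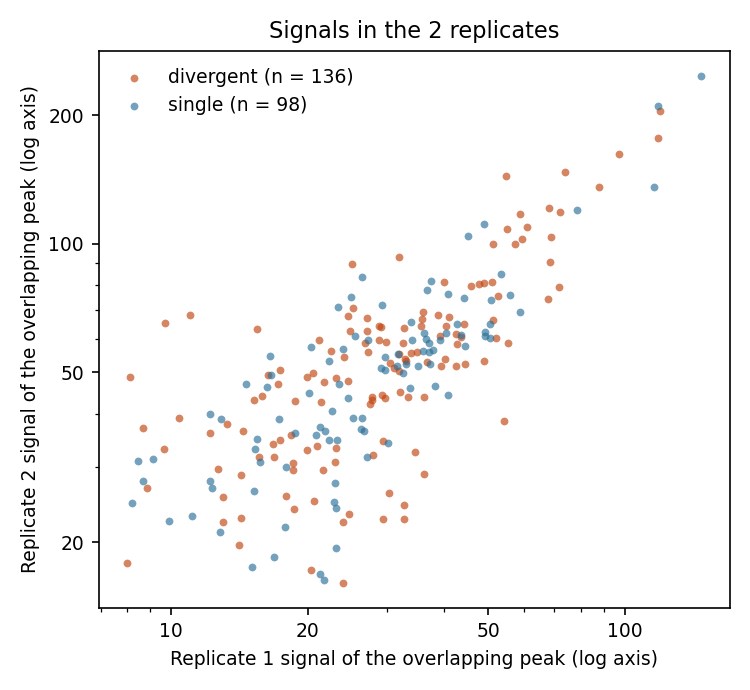
Authors' peak signal in replicate 1 and replicate 2, both on log axes, for the peaks overlapped in both replicates, with divergent and single peaks in different colours. The points run along a rising band, with the rpl-3 peak highest in both replicates.

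Most of these peaks overlapped a peak in each replicate list, at any rank. A replicate peak overlapped the IDR peak by at least 1 bp in both replicates for 238 of 256 (93.0%, 89.2 to 95.5), which was 136 of 145 divergent peaks (93.8%) and 98 of 107 single peaks (91.6%; difference 2.20 points, −4.28 to 9.61, Fisher's exact test, adjusted p = 0.921). Across the 238 peaks, which share both libraries, Spearman's rho between the replicate signals was 0.733. It was 0.692 over 136 divergent and 0.797 over 98 single peaks. The replicate lists were long, and the overlapping peaks reached rank 16081 in replicate 1 and rank 6836 in replicate 2. An overlapping peak within the first 1014 ranks of both lists was found for 136 of 256 peaks (53.1%, 47 to 59.1). The IDR set was built from these replicates, so overlap with them is a description of the set and not an independent check. The peak of ttx-7, at an IDR signal of 46.6, overlapped a peak in neither replicate list.

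Ribosomal protein genes were the list with the most genes at these peaks. Of all 17242 autosomal protein-coding genes, 392, or 2.27%, were nearest to one of the 256 peaks or faced one across a divergent gap. Of 77 ribosomal protein genes, 20 (26%) were, 12 as the nearest gene and 8 as the facing gene. The 20 peaks comprised 16 divergent and 4 single ones, 18 of them in gaps of at most 1000 bp, and 19 of them had a signal above the IDR median. Their summits lay 26 to 743 bp from the ribosomal protein start, with a median of 301.5 bp, and all 20 were overlapped in both replicates. A WGATAR was within 50 bp in 2 of the 20 (10%), those of rpl-1 and rps-15, against 110 of 236 other peaks of this kind (46.6%; Fisher's exact test, adjusted p over 5 tests added after the data were seen = 0.00267), and a GAGAGA in 0. The list was chosen with results of these data known, so this p is not independent evidence. The 20 had a median GC content of 50.5% in the 101 bases, against 42.6% in the other peaks of this kind. Without the 20, a signal above the IDR median was found in 71 of 129 divergent peaks (55%) and 52 of 103 single peaks (50.5%).

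Of 68 genes for translation factors and tRNA synthetases, 5 (7.35%) were nearest to or faced a peak, and all 5 peaks were divergent and without WGATAR. Besides iff-2 they included the gene of elongation factor eEF1A, eef-1A.1, facing rfc-4, with a signal of 97.3 in the IDR set, 52.5 in replicate 1 and 75.7 in replicate 2. The eEF2 gene eef-2 had 82.0, 45.9 and 79.9 in the same order. Of 34 proteasome and p97 genes, 2 (5.88%) were nearest to or faced a peak, against 2.27% of all autosomal genes. They were cdc-48.1 and the proteasome lid subunit gene rpn-3, with 54.1, 39.9 and 81.6 for rpn-3. Among 47 respiratory chain genes there were 4 (8.51%), led by cox-5A with an IDR signal of 84.4, atp-3 with 55.4 and nuo-1 with 46.6. Among 18 genes of the vacuolar proton pump there were 2 (11.1%), vha-1 at 49.0 and vha-8 at 48.9, both as facing genes. None of the 4 respiratory chain peaks had a WGATAR.

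Of 7 autosomal genes of tyrosine and tryptophan breakdown, 2 (28.6%) were found, against 2.27% of all autosomal genes. Both had divergent peaks without WGATAR. The peak 97 bp upstream of hgo-1, homogentisate dioxygenase, had signals of 125.9 in the IDR set, 49.1 in replicate 1 (rank 107) and 81.0 in replicate 2 (rank 96). The peak 180 bp upstream of tdo-2, tryptophan dioxygenase, had 106.8, 24.8 (rank 850) and 62.4 (rank 262). The rank of tdo-2 thus differed more between the replicates than that of hgo-1.

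Lists of genes with roles in the epidermis and cuticle contributed between 0 and 5 genes each, to be read against the 2.27% of all autosomal genes, and most of their summits had a GATA site. Of 146 autosomal cuticle collagen genes, 5 (3.42%) were nearest to or faced 4 peaks, and all 4 summits had WGATAR. The strongest was the peak between C15A11.7 and col-62, with 95.4 in the IDR set, 35.9 in replicate 1 and 69.1 in replicate 2. The peak 163 bp upstream of col-10, a collagen gene used here as an epidermis marker, had 83.3, 16.5 (rank 2026) and 54.6 (rank 406), and 1 peak with 62.3 lay between the collagen genes col-117 and col-3. Of 15 molting genes 2 (13.3%) were found: nekl-2, a NIMA-like kinase gene, had 64.5 and mlt-7, a peroxidase gene, had 48.6, both with WGATAR and GAGAGA. Of 13 epidermal transcription factor genes, 1 (7.69%) was found, sma-3, a Smad gene that regulates body size, with 51.0 and both motifs. Antimicrobial peptide genes numbered 3 of 21 (14.3%), the nlp-31 and nlp-34 pair and nlp-24, whose peak of 55 had no overlapping peak in replicate 1. None of the 34 genes of apical matrix ZP proteins was near a peak of this kind. Of the marker genes, col-10 was the only one among 6 for epidermis, with 0 of 4 for intestine, 0 of 4 for muscle, 0 of 5 for neurons and 0 of 4 for the germ line.

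Nuclear receptor genes, a family of ligand-regulated transcription factors, had 7 peaks, all divergent, at 7 of 247 genes, and 5 of the 7 had WGATAR. The share of 2.83% was near the 2.27% of all autosomal genes. After nhr-80 the highest signals were 86.0 at nhr-68, a regulator of propionate metabolism, and 79.0 at the gap of rps-28 and nhr-274, whose start was 13967 bp away. For the enzymes of small molecule conjugation and oxidation, 4 of 63 UDP-glucuronosyltransferase genes (6.35%) were found, ugt-9 and ugt-11 facing each other at 65.7, ugt-58 at 60.1 and ugt-13 at 56.6. Of 67 cytochrome P450 genes 3 (4.48%) were found, with cyp-13A5 at 54.2 and cyp-29A3 at 49.0 after cyp-29A4. Hedgehog-related genes contributed 2 of 73, grl-11 at 72.3 and grl-17 at 65.9, and histones 2 of 77, his-37 and the H2A.Z gene htz-1 at 58.3. Their shares, 2.74% for hedgehog-related genes and 2.60% for histones, were near that of all genes too. Chemoreceptor genes, the largest list, had 6 of 1276 (0.470%), led by srw-145 at 83.4, str-176 at 65.4 and srh-17 at 52.6. The shares of the lists were not tested, since the members and lists were chosen with results known.

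GATA sites were enriched at the summits, yet fewer than 1 summit in 2 had one. Within 50 bp of the summit, 112 of 256 peaks (43.8%, 37.8 to 49.9) had WGATAR on either strand, against 48 of 256 (18.8%, 14.4 to 24) in windows of the same length 500 bp away. The motif was at the summit only in 93 peaks and in the flank only in 29 (exact McNemar test, p = 5.21e-09). Of 99813 intergenic windows of 101 bp near autosomal gene starts, 21.8% had it. The same difference was 17.2 points without replicate 1 and 10.1 points without replicate 2, against 25 points in the IDR set, so its size depended on which list the peaks were taken from. Without a replicate, here and below, means that the 1014 highest-signal peaks of the other replicate's list stood in for the IDR set. The motif read backwards, searched as a control sequence of the same composition, was more frequent at summits than in flanks by 7.81 points (exact McNemar test, p = 0.0495). Of the 112 peaks, 69 had 1 site and 43 had 2 or more. TGATAA was in 74 peaks, AGATAA in 31, TGATAG in 20 and AGATAG in 19, with some peaks holding several. The share did not follow the peak signal: it was 46.9%, 45.3%, 35.9% and 46.9% in the 4 groups of 64 peaks taken from the highest to the lowest signal.

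**Figure D4:**
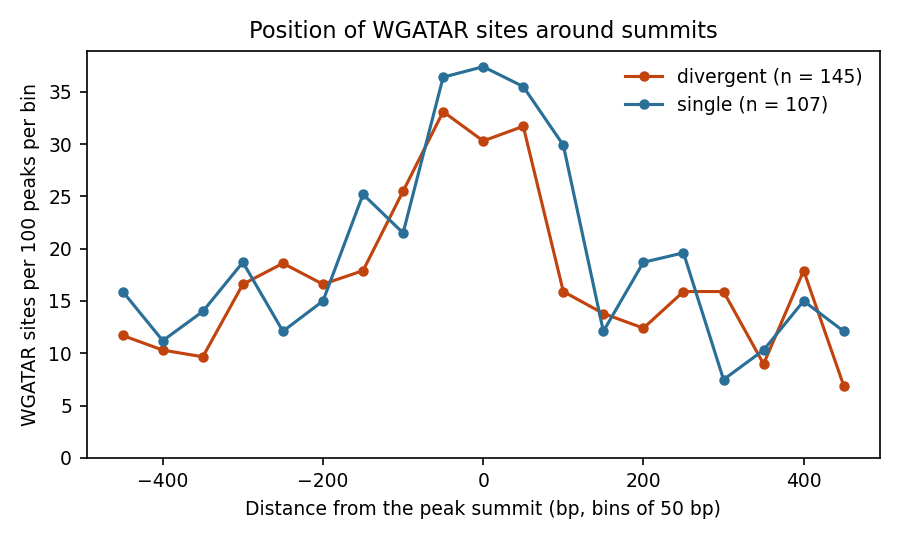
WGATAR sites per 100 peaks in bins of 50 bp, by distance of the site from the summit in bp, for divergent and single peaks. In the bins from −50 to 50 bp the values are 30.3 to 33.1 for divergent and 35.5 to 37.4 for single peaks, and they fall towards both sides.

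By promoter type, WGATAR was present in 60 of 145 divergent peaks (41.4%, 33.7 to 49.5) and 51 of 107 single peaks (47.7%, 38.4 to 57.0). The difference of −6.28 points (−18.4 to 6.01) did not pass the test (Fisher's exact test, adjusted p = 0.738), and the interval allows a difference of either sign. When only peaks with both starts within 1000 bp of the summit were counted as divergent, and the other 70 divergent peaks were counted with the single peaks, the difference was −26.6 points (Fisher's exact test, adjusted p = 2.88e-04). Divergent peaks of that kind had WGATAR in 19 of 75 (25.3%, 16.9 to 36.2), against 41 of 70 (58.6%, 46.9 to 69.4) of the other divergent peaks. All divergent peaks in gaps of at most 1000 bp are of that kind, and the other divergent peaks all lie in longer gaps. This split thus follows gap length in large part, and it does not separate promoter type from gap length.

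The share of summits with a GATA site was higher in long gaps, in both promoter types. Among divergent peaks, WGATAR was present in 43 of 81 in gaps over 1000 bp (53.1%, 42.3 to 63.6) and 17 of 64 in shorter gaps (26.6%, 17.3 to 38.5). Among single peaks the counts were 37 of 59 (62.7%, 50 to 73.9) in long gaps and 14 of 48 (29.2%, 18.2 to 43.2) in shorter ones. Background windows had WGATAR at nearly the same share in all 4 classes, between 21.7% and 22.0%. They were not matched to the peaks in GC content. Over all 256 peaks the values were 80 of 141 (56.7%) in gaps over 1000 bp and 32 of 115 (27.8%) in shorter gaps, a difference of 28.9 points (16.8 to 39.7; Fisher's exact test, p = 4.44e-06, adjusted p over the same 5 tests = 2.22e-05). The difference was 26.6 points (13.8 to 38.1) without the ribosomal protein promoters. It was 20 points (9.63 to 29.8) in the highest-signal pooled peaks, 22.9 (12.4 to 32.7) in replicate 2 alone and 31.8 (21.3 to 41.3) in replicate 1 alone. Intergenic peaks near gene starts on the X chromosome did not show it: 24 of 58 (41.4%) in long gaps and 5 of 8 (62.5%) in shorter gaps had WGATAR, a difference of −21.1 points (−47.7 to 13.3) whose interval includes 0.

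**Figure D5:**
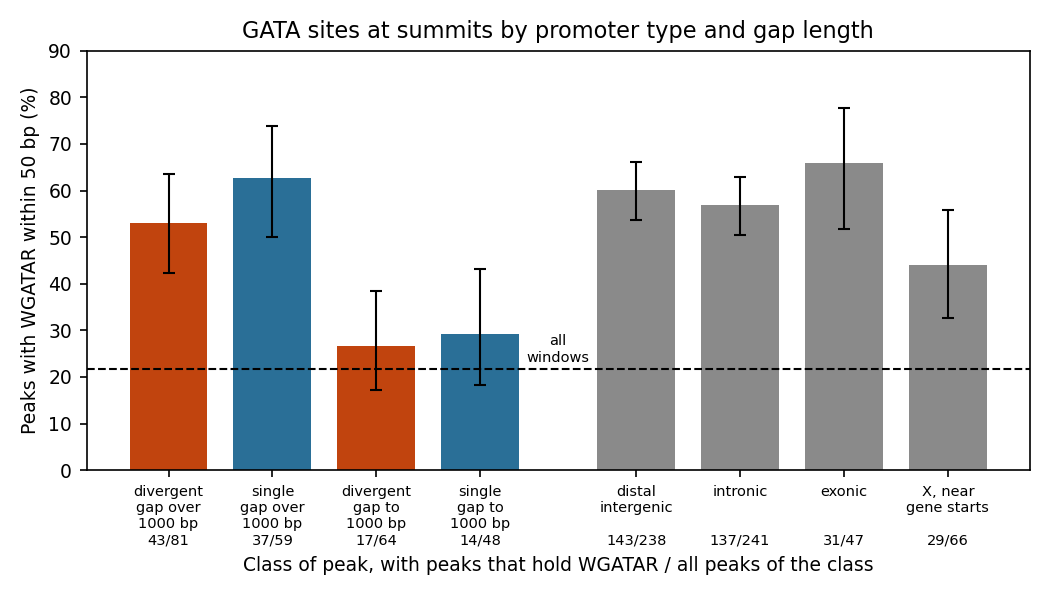
Percentage of peaks with WGATAR within 50 bp of the summit, by promoter type and gap length and for the other classes of peak, with 95% Wilson intervals. Gaps over 1000 bp, at 53.1% for divergent and 62.7% for single peaks, lie above the dashed line for all background windows at 21.8%, and the intervals of the shorter gaps, at 26.6% and 29.2%, include it. The background windows were not matched to the peaks in GC content, which was higher in the peaks, so the line does not show whether short gaps lack enrichment.

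Signal and base composition moved with gap length as well. The median signal was 61.7 in long and 70.1 in short divergent gaps, and 58.7 in long and 65.6 in short single gaps. Median GC content was 42.6% in long and 46.5% in short divergent gaps, and 40.6% in long and 46.0% in short single gaps, while the background windows averaged 33.1% to 33.8%. In a logistic model of WGATAR over the 252 divergent and single peaks, the odds ratio was 1.33 per doubling of gap length (95% interval 1.09 to 1.62). It was 0.870 (0.462 to 1.64) for divergent against single, 1.01 (0.820 to 1.23) per doubling of distance to the start, and 0.162 (0.0964 to 0.273) per 10 points of GC. Compared without a model, WGATAR was present in 51.3% of peaks over 250 bp from the nearest 5′ end and in 37.2% of nearer peaks. This difference of 14 points (1.85 to 25.7) passed (Fisher's exact test, adjusted p over the 5 tests added after the data were seen = 0.0395). Gap length and GC content were not held fixed in that comparison. A WGATAR site is itself poor in GC, so the GC term is in part the site's own composition, and the part that base composition had in the difference between gap lengths was not separated further.

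GAGAGA, a purine repeat searched on both strands because it stood out in earlier results of these data, was within 50 bp of 62 of 256 summits (24.2%, 19.4 to 29.8). It was in 15 windows 500 bp away (5.86%), and 6.14% of the background windows had it. It was found in 37 of 145 divergent peaks (25.5%) and 25 of 107 single peaks (23.4%; difference 2.15 points, −8.77 to 12.5, Fisher's exact test, adjusted p = 0.921). Peaks without WGATAR had it in 37 of 144 (25.7%), against 25 of 112 (22.3%) of peaks with WGATAR. Neither motif was present in 107 of the 256 peaks.

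All 2080 hexamers, each counted with its reverse complement, were compared in the same windows with Fisher's exact test and Benjamini-Hochberg adjustment. Between divergent and single peaks 0 passed (0.00%), with 69 at an unadjusted p under 0.05. Between gaps of at most 1000 bp and longer gaps 4 passed (0.192%). GCTCCA, in 14.8% of peaks in short gaps and 1.42% in longer ones, and CGCAGC, in 12.2% and 0.709%, were more frequent in short gaps. GATAGA, in 0.870% and 14.2%, and TGATAA, in 16.5% and 39.0%, were less frequent there. TGATAA is a form of WGATAR and GATAGA overlaps other forms, so these calls are not separate from the WGATAR difference by gap length. Each of the 4 had an adjusted p of 0.0476 by Fisher's exact test, close to the threshold. GCTCCA also stands, in lower case, in the rpl-15 sequence printed above.

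Against the other classes of autosomal IDR peak, the peaks near gene starts had fewer GATA sites. WGATAR was in 112 of 256 (43.8%) near gene starts, against 143 of 238 (60.1%) distal intergenic peaks, a difference of −16.3 points (−24.8 to −7.52; Fisher's exact test, adjusted p over 12 tests = 0.00376). Against 137 of 241 (56.8%) intronic peaks the difference was −13.1 points (−21.6 to −4.30, exact adjusted p = 0.0244), and against 31 of 47 (66.0%) exonic peaks −22.2 points (−35.5 to −6.66, adjusted p = 0.0262). The intronic difference no longer passed the exact test when the spans of all genes, noncoding ones included, defined the classes (−8.88 points, adjusted p = 0.145), in windows of 25 bp (−9.66, adjusted p = 0.0577), for TGATAA alone (−9.27, adjusted p = 0.116) or in the stronger 507 peaks of the IDR set (−15.6, adjusted p = 0.0528). The exonic difference no longer passed the exact test without replicate 1 (adjusted p = 0.103) or without replicate 2 (adjusted p = 0.114). Against 29 of 66 (43.9%) intergenic peaks near gene starts on the X chromosome the difference was −0.189 points (interval −13.6 to 12.7; adjusted p = 1 by Fisher's exact test), and without replicate 2 it was −19.1 points (adjusted p = 0.010).

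A signal above the IDR median was more frequent in the peaks near gene starts, at 144 of 256 (56.2%), than in distal intergenic peaks, at 106 of 238 (44.5%), by 11.7 points (2.89 to 20.3; Fisher's exact test, adjusted p = 0.0348). This difference was 1.98 points without replicate 1 and −0.375 points without replicate 2. The differences from intronic peaks (8.12 points, adjusted p = 0.125), exonic peaks (3.06, adjusted p = 0.819) and X peaks near gene starts (10.8, adjusted p = 0.172) did not pass Fisher's exact test. In overlap with both replicates the peaks near gene starts, at 93.0%, differed from distal peaks, at 87.4%, by 5.57 points (0.312 to 11.0; adjusted p = 0.0963 by Fisher's exact test), and no class passed the adjusted test. Of the hexamers, 5 of 2080 (0.240%) differed between the peaks near gene starts and the distal peaks, all of them more frequent near gene starts. These were GCCAAC and GCTCCA, each in 7.42% against 0.420%, GAGCGC in 11.3% against 2.10%, AAATGC in 12.5% against 2.94%, and CGGCGC in 5.47% against 0 of 238 distal peaks.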

How the data were processed

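Peaks came from ChIP-seq of whole L1 larvae. Per the labels, there were 2 biological replicates. The authors deposited peak lists on ce11 for each replicate (17087 and 7079 rows), for the pooled replicates (30000 rows) and for the IDR set (1014 rows). Each row carries a signal value that the authors deposited, never negative and on a scale that differs between lists, used here only to rank or split peaks within a list. Summit offsets were used as deposited. How reads were aligned and peaks called, and with which cutoffs, is not given in the sources used here. Lists on the older build were not used.

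Genes were the 19973 nuclear protein-coding genes of Ensembl release 115 (WBcel235, which is ce11), and sequence was read from the RefSeq copy of that assembly. An intergenic gap is sequence between neighbouring protein-coding spans. A gap bounded by 2 annotated 5′ ends was called divergent and one bounded by 1 was called single. Motifs were searched within 50 bp of the summit. The flank window lay 500 bp away, towards higher coordinates for summits at even positions and towards lower ones for odd positions. Shares carry 95% Wilson intervals, and differences of shares carry Newcombe intervals. Fisher's exact, exact binomial and exact McNemar tests and logistic models were two-sided, with Benjamini-Hochberg adjustment within each family at 0.05. Peaks of 1 set share their libraries, so p-values describe these lists and not further animals. Tests were tested on simulated data.

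The members and gene lists were chosen with earlier results of these data known. Named were the genes at the 12 strongest divergent and single peaks, up to 3 of each list and 3 peaks on each side of the distance limit. The gap-length, distance, ribosomal and gene-start comparisons, the hexamer tests, the 4 extra sequences, ttx-7, ugt-13, rpl-1, rps-15 and the second nhr-80 peak were added after values were seen. Tools were scipy 1.17.1 for tests, statsmodels 0.14.6 for models, pandas 2.3.3 and numpy 2.4.6 for tables, and matplotlib 3.10.9 for figures, under Python 3.11.15.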

Additional observations from a re-analysis of the deposited data

How the results depend on the processing

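Over 22 results and 20 settings there were 242 alternative values, of which 194 kept their direction and their side of the threshold. Passing refers to the adjusted p for the tests between kinds of peak and to the unadjusted p for the gap and summit tests. The enrichment of divergent gaps, in all 3 forms, and of WGATAR at summits over flanks did so in every alternative run that kept a GATA motif. The motif read backwards is a control sequence and not a form of WGATAR, and its own difference between summits and flanks was 7.81 points. Differences below are in percentage points. No paired analysis was possible because the samples form 1 group.

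For divergent minus single peaks, GAGAGA turned to −0.676 with a distance limit of 500 bp, −0.460 in the stronger 507 IDR peaks, −2.40 in pooled peaks, −2.76 with both starts required within the limit and −1.52 in windows of 100 bp. WGATAR turned to 3.01 in the stronger 507 peaks and to 5.56 for TGATAA alone, and overlap with both replicates to −1.15 in the stronger 507 and −1.11 in pooled peaks. Closeness to the start within 250 bp passed with a limit of 1500 bp (20.1), both starts required (30.8), gaps over 2000 bp left out (21.9) and tandem gaps under 500 bp left out (22.8). Requiring both starts within the limit itself favours divergent summits near a start, so the 30.8 points are no test of closeness. With both starts required, a split that follows gap length in large part, WGATAR passed at −26.6.

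For peaks near starts minus other classes, the WGATAR difference from intronic peaks no longer passed in the stronger 507 peaks (−15.6), with spans of all genes (−8.88), in windows of 25 bp (−9.66) or for TGATAA (−9.27). That from exonic peaks did not with spans of all genes (−21.1), in windows of 100 bp (−17.6) or for TGATAA (−11.5). The reversed motif gave −1.53 for distal, −6.17 for intronic and −10.4 for exonic peaks. The difference from X peaks turned to 0.491 with a limit of 1500 bp and 0.174 in peaks found in both replicates. The signal difference from distal peaks did not pass with a limit of 1500 bp (7.55), in the stronger 507 peaks (4.61), in pooled peaks (0.299), with spans of all genes (10.7) or at the 75th percentile (8.95), where that from intronic peaks passed (10.9). In pooled peaks the signal difference from X peaks was −6.97 and the overlap differences from distal, intronic and exonic peaks were each −0.651. The overlap difference from distal peaks passed in the stronger 507 (5.91).

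With 1 replicate left out, the ranges were −3.48 to 4.44 for GAGAGA in divergent minus single peaks, −16 to −12.9 for WGATAR against exonic peaks and −19.1 to 0.157 against X peaks. For signal they were −0.375 to 1.98 against distal, −1.04 to 4.55 against intronic, −7.19 to −1.04 against exonic and −8.01 to 4.51 against X peaks. Overlap with both replicates was not computed where a replicate was left out or both were required, and gap counts not where both starts were required. The cause of these changes was not tested. Read depth is unknown, which limits what the peak lists can show at weak sites.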

Other observations

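The chromosomes differed in how their peaks divided between promoter types, although divergent gaps made up 28.1% to 30.6% of the gaps on each. Of the divergent and single peaks, 40 of 58 were divergent on chromosome I (69.0%, 95% Wilson interval 56.2 to 79.4), 29 of 43 on III (67.4%, 52.5 to 79.5), 30 of 44 on IV (68.2%, 53.4 to 80.0), 28 of 58 on V (48.3%, 35.9 to 60.8) and 18 of 49 on II (36.7%, 24.7 to 50.7). The share of divergent gaps that held a peak was 6.01% on I and 2.49% on II, and that of single gaps 1.29% on I and 1.72% on II. Over all autosomes, divergent gaps held 42.7% of the intergenic sequence within the distance limit. The divergent share of peaks on II lay below that value and the share on V above it, both with intervals that include it. The sequence share was not computed for each chromosome, and the difference between chromosomes was not tested.

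The 4 peaks in gaps bounded by no 5′ end lay downstream of the genes whose starts were nearest. They were at ZK1248.17 with a signal of 117.2, T27A3.8 with 63.2, nspe-6 with 46.4 and F25E5.9 with 46.3, and only that of F25E5.9 had a WGATAR within 50 bp. A tRNA gene was within 250 bp of the summit in 1 of 145 divergent peaks and 0 of 107 single peaks. CACGTG was within 50 bp of 16 of the 256 summits (6.25%, 3.88 to 9.91), with no share in background windows set beside it, so its enrichment was not tested. In divergent peaks 52 of 95 WGATAR sites (54.7%, 44.7 to 64.4), and in single peaks 31 of 78 (39.7%, 29.6 to 50.8), read on the strand of the nearest gene, a difference that was not tested.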
